A study of Mus musculus with 6 samples.

Results

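Axon guidance ligands and receptors are described here across RNA-seq libraries of differentiated mouse neural progenitor cells. The genes were chosen by symbol alone, as the semaphorins of classes 3 to 7, plexins, neuropilins, Eph receptors, ephrins, Slits, Robos, netrins, the Unc5 genes and Dcc. By these names 68 of the 39179 genes in the table were matched, and 61 of them had at least 30 counts summed over the 6 libraries and were tested. The progenitors came from the cerebral cortex of CD1 mouse embryos at E13.5 and had been differentiated in culture before lysis. The 3 control libraries were of cells stably expressing green fluorescent protein (GFP). The other 3 were of cells stably expressing G392E neuroserpin (G392E-NS), the variant of a neuronal protease inhibitor that polymerises in the endoplasmic reticulum and causes the dementia FENIB. The labels give no promoter, species or clone for either construct, cells with normal neuroserpin were not analysed here, and nothing says whether the replicates were separate cultures. All p-values thus rest on the variation among these 6 libraries alone, and that variation may be technical.

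Guidance genes encode the cues and receptors by which growing axons and migrating cells find their way. Semaphorins act through plexins, and most of the secreted ones also need a neuropilin as co-receptor. Ephrins bind Eph receptor tyrosine kinases at cell contacts and can signal into both cells. Slits repel axons through Robo receptors, and netrins attract them through DCC or repel them through UNC5 receptors. In the developing cortex these families also guide the migration of neurons and glial precursors.

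Libraries held 15507487 to 24835835 counts, of which guidance genes took 0.338% to 0.392%. Serpini1, the mouse neuroserpin gene, was at 4.20 to 5.18 CPM (counts scaled to a common library size) with GFP and 4.96 to 6.73 with G392E-NS, so its counts did not separate the groups. Of 12 astrocyte markers 7 were higher with G392E-NS and none lower, where 4.66% of all genes tested were called higher and 1.28% lower. The astrocyte markers summed to 4044 to 5724 CPM with GFP and 9333 to 14655 CPM with G392E-NS. Their part in the differences below was not tested. The sums of the neuronal, progenitor, oligodendrocyte-lineage, endothelial and mural marker lists overlapped between the groups, though single genes in some of them were called. Of 11 neuronal markers tested, Gap43 was higher (log2 fold change 1.11) and Elavl4 lower (−0.70), and of 10 progenitor markers Prom1 was higher (2.52) and Nes lower (−0.77). In the oligodendrocyte lineage Pdgfra (1.11) and Mog (2.24) were higher. Fibroblast and meningeal markers summed to 306 to 451 CPM with GFP and 585 to 1064 CPM with G392E-NS, with the defining genes Dcn and Lum at 0 counts. Of these 10 markers only 4 were tested, and Twist1 and Pdgfra, the latter also a marker of oligodendrocyte precursors, were called higher. The part of these marker genes was not tested either. Microglial markers summed to at most 0.352 CPM, with Csf1r, C1qa and C1qb at 0. In such bulk samples, fewer cells of a type and less RNA per cell cannot be told apart. Xist, the RNA that silences an X chromosome, was at 1.41 to 1.56 CPM with GFP and 1156 to 1844 CPM with G392E-NS. The groups thus differed in Xist as completely as in construct. For no member can the construct be told apart from a difference in the cells that goes with Xist. Its part in the values of the members, the X-linked Plxnb3, Plxna3 and Efnb1 among them, was not tested.

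Most guidance genes did not pass the test, and 7 members of the semaphorin, neuropilin, plexin, ephrin and Eph families did, with fold changes from 1.57-fold for Nrp2 to 10.8-fold for Epha3. The ephrin gene Efnb3, the Eph receptor gene Epha3 and the semaphorin gene Sema4a were higher with G392E-NS. The plexin gene Plxnb3, the neuropilin gene Nrp2, the Eph receptor gene Epha4 and the semaphorin gene Sema3c were lower. These 7 calls among 61 genes, 3 higher and 4 lower, are 11.5% of the genes tested, where 5.94% of all 14884 genes tested were called. By direction, 4.66% of all genes tested were called higher and 1.28% lower (edgeR quasi-likelihood test, adjusted p under 0.05). A difference of more than 1 on the log2 scale was found for 10 of the 61, or 16.4%, against 8.33% of all genes. The median log2 fold change was −0.02 for the guidance genes and 0.00 for all genes, and 29 members lay above 0 and 32 below. Groups did not overlap for 18 members, or 29.5%, against 28.3% of all genes tested. Of these 18, 10 were higher and 8 lower, where 15.5% and 12.7% of all genes did not overlap in those directions. Leaving out GFP replicate 1 left 3 members called, and 1.66% of all genes. Leaving out GFP replicate 2 left 4 members (1.76% of all genes). Leaving out G392E-NS replicate 2 also gave 4 (3.45% of all genes), of which 3 were among the 7 and the other was Sema6b.

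**Figure D1:**
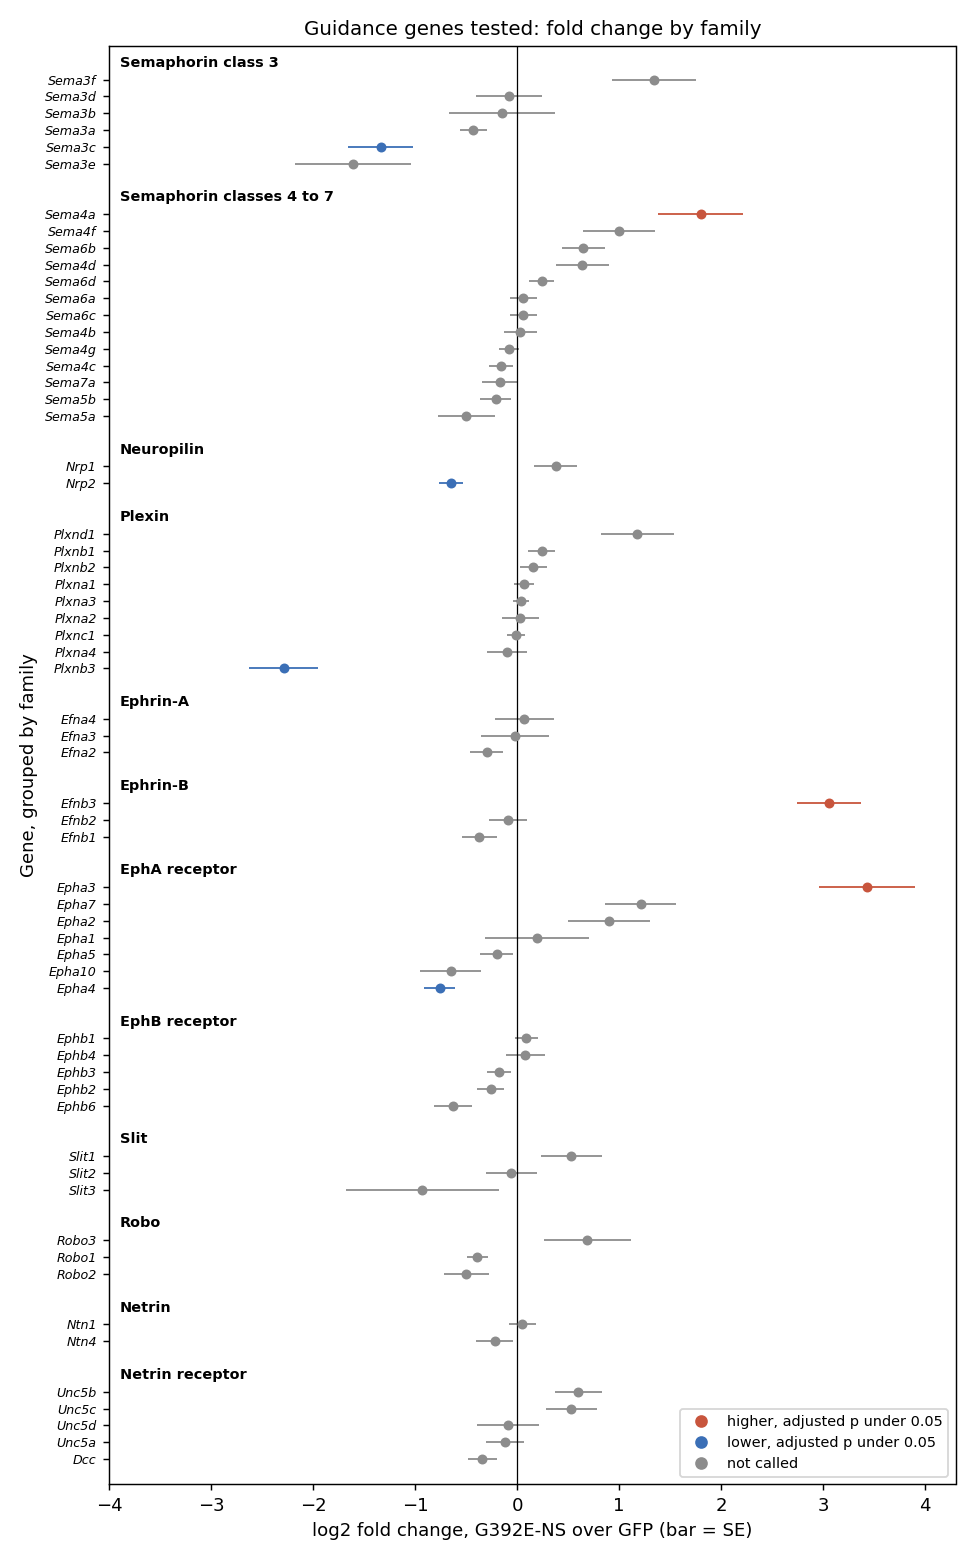
Log2 fold change of G392E-NS over GFP (x axis, points, with the standard error as a bar) for the 61 guidance genes tested, grouped by family (y axis). Red points were called higher and blue points lower at an adjusted p under 0.05. Epha3 at 3.43 and Efnb3 at 3.06 lie farthest to the right, and Plxnb3 at −2.29 farthest to the left.

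Secreted semaphorins, the class 3 members, were low in these cells. Of 7 matched genes 6 were tested, and 1 was called lower and none higher. A fold change below 0 was found for 5 of the 6 (median −0.29), where 49.4% of all genes tested lay above 0. Among those 5, Sema3b (−0.15, SE 0.52) and Sema3d (−0.08, SE 0.32) changed sign in some alternatives. Sema3c, a secreted cue that acts through both neuropilins, had 4.37, 4.67 and 2.27 CPM in GFP replicates 1 to 3. It had 1.66, 1.23 and 1.57 CPM in G392E-NS replicates 1 to 3. All G392E-NS libraries lay below all GFP libraries, although GFP replicate 3 lay closer to them than to the other GFP libraries. Sema3c (ENSMUSG00000028780, GRCm38 chromosome 5, 17574281 to 17730268) fell 2.53-fold, with a fold change of −1.34 on the log2 scale (SE 0.32, adjusted p = 0.0482). The call was lost when any 1 library but GFP replicate 3 was dropped: GFP replicate 1 (0.177) or 2 (0.183), G392E-NS replicate 1 (0.0656), 2 (0.139) or 3 (0.103). It was not called by limma-voom (0.0819), with length and GC trends removed (0.0563), or where 3 libraries had to reach 1 CPM (0.0517). Nor was Sema3c called with the replicate number as a block (0.119).

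Sema3a, which repels cortical axons through neuropilin and had the highest level per length in the class, was at 28.8, 32.0 and 30.7 CPM with GFP and 26.2, 19.8 and 21.9 CPM with G392E-NS. The groups did not overlap, but its fold change of −0.43 on the log2 scale (SE 0.13) did not pass, with an adjusted p of 0.0913. It passed without G392E-NS replicate 1, with −0.56 and an adjusted p of 0.0278. Sema3e, which binds plexin-D1 directly, was under 1 CPM in every library and had a fold change of −1.61 on the log2 scale (SE 0.57, adjusted p = 0.146). Sema3f, a ligand of neuropilin receptors containing NRP2, was the only tested class member above 0, at 1.34 (SE 0.41, adjusted p = 0.0986). It had 0.352 to 0.60 CPM with GFP and 0.652 to 1.65 CPM with G392E-NS. Sema3b and Sema3d overlapped between the groups, and Sema3g, with 13 counts in all, was not tested. Summed per kilobase of exon, the class had 3.13 to 3.36 CPM with GFP and 2.16 to 2.72 CPM with G392E-NS.

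Membrane-bound semaphorins, classes 4 to 7, were far more abundant, and 1 of 13 was called. Sema4a, a transmembrane semaphorin, had 1.21, 1.11 and 1.63 CPM in GFP replicates 1 to 3 and 3.49, 7.66 and 2.61 CPM in G392E-NS replicates 1 to 3. The groups did not overlap, and the G392E-NS libraries spread widely, with replicate 2 highest. Sema4a (ENSMUSG00000028064, chromosome 3, 88435959 to 88461182) rose 3.49-fold (log2 fold change 1.80, SE 0.42, adjusted p = 0.0449). Its exons overlap those of the microRNA gene Mir7011. Without G392E-NS replicate 2 the log2 fold change was 1.20 and the call was lost (adjusted p = 0.0731), and it was also lost without any 1 GFP library (0.173, 0.160 and 0.0820 for replicates 1 to 3). Limma-voom (0.0755), removal of length and GC trends (0.0503) and the replicate number as a block (0.124) did not call it.

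The other 12 members of these classes had log2 fold changes of −0.50 to 1.0, with none called. Sema6d, a transmembrane cue that binds plexin-A1, had the highest level of the class per length, at 24.6 CPM per kilobase with GFP and 29.0 with G392E-NS. In CPM it was at 281, 247 and 252 with GFP and at 315, 339 and 265 with G392E-NS, groups that overlapped (log2 fold change 0.24, SE 0.12, adjusted p = 0.283). Sema6a, a ligand of plexin-A2 and plexin-A4, was at 129, 120 and 105 CPM with GFP and 129, 104 and 134 CPM with G392E-NS. Its fold change of 0.06 on the log2 scale (SE 0.13, adjusted p = 0.835) was below the spread between replicates and changed sign in some alternatives. Sema4d, a ligand of plexin-B1, and Sema4f did not overlap between the groups, with 0.64 (SE 0.26, adjusted p = 0.198) and 1.0 (SE 0.35, adjusted p = 0.141). Sema6b had 17.2 to 21.5 CPM with GFP and 21.3 to 38.6 CPM with G392E-NS. Its fold change of 0.65 on the log2 scale (SE 0.21, adjusted p = 0.114) became 0.83 and passed without G392E-NS replicate 2 (adjusted p = 0.0411). On all 6 libraries Sema6b was also called by DESeq2 (0.0431) and by the fit with no filter on low counts (0.0317). Sema5a, a ligand of plexin-B3, was at 147, 211 and 124 CPM with GFP and 139, 68.2 and 135 CPM with G392E-NS. Its lowest value stood apart from the other G392E-NS libraries, and its fold change of −0.50 on the log2 scale (SE 0.28) had an adjusted p of 0.347.

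Neuropilins, the co-receptors of secreted semaphorins, held 1 call of 2. Nrp2 was at 80.2, 88.1 and 91.3 CPM in GFP replicates 1 to 3 and at 52.2, 48.4 and 64.9 CPM in G392E-NS replicates 1 to 3. Every G392E-NS library lay below every GFP library. Nrp2 (ENSMUSG00000025969, chromosome 1, 62703285 to 62818695) fell 1.57-fold, with a fold change of −0.65 on the log2 scale (SE 0.12, adjusted p = 0.0224). This call was lost without any 1 GFP library (0.0737, 0.0946 and 0.0686 for replicates 1 to 3) or without G392E-NS replicate 2 (0.0504). With the replicate number as a block it was lost too (0.0507). Nrp1, the co-receptor for Sema3a, was at 26.9, 30.3 and 44.4 CPM with GFP and 46.8, 51.1 and 34.1 CPM with G392E-NS. These groups overlapped, and its fold change of 0.38 on the log2 scale (SE 0.21, adjusted p = 0.336) did not pass. Per exon length, the ratio of Nrp2 to Nrp1 within a library was 2.47, 2.40 and 1.70 with GFP and 0.921, 0.783 and 1.57 with G392E-NS. The ratio was therefore lower in each G392E-NS library, with G392E-NS replicate 3 and GFP replicate 3 close together. That contrast between the pair was set up after their values were seen and was not tested.

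**Figure D2:**
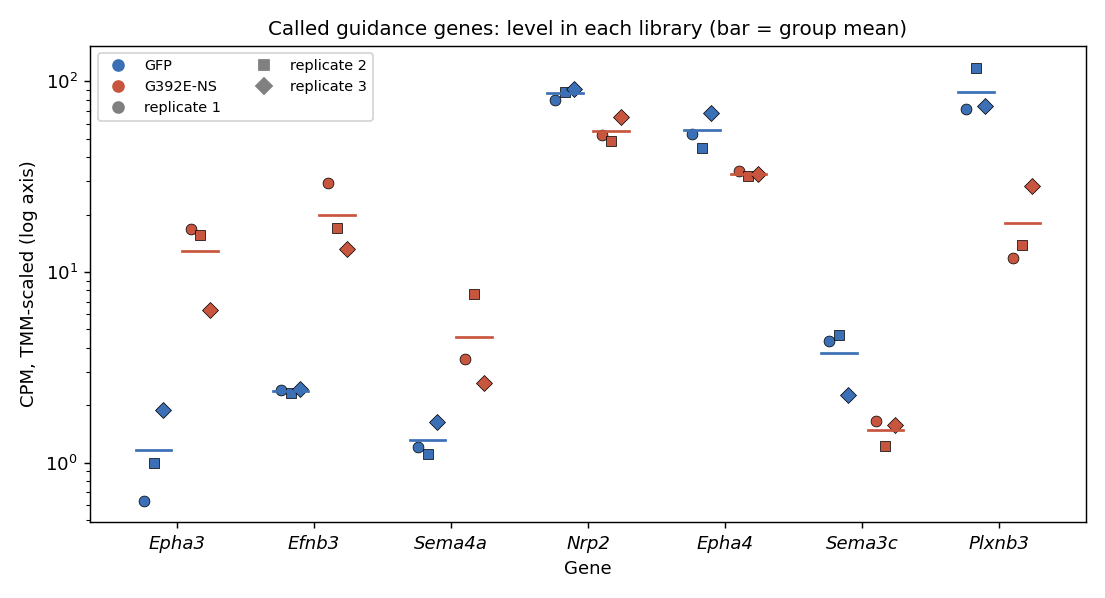
TMM-scaled CPM (y axis, log scale) of the 7 called guidance genes (x axis) in each library, GFP in blue and G392E-NS in red, with marker shapes for replicates 1 to 3 and bars for group means. The groups do not overlap for any of the 7, and the gap is widest for Epha3 and Efnb3.

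Plexins, the semaphorin receptors, were the most abundant guidance family per length, and 8 of 9 were not called. Plxnb3, which encodes the receptor for Sema5a, had 71.6, 118 and 73.9 CPM in GFP replicates 1 to 3. It had 11.9, 13.9 and 28.4 CPM in G392E-NS replicates 1 to 3. The highest G392E-NS library, replicate 3, was still far below the lowest GFP library. Plxnb3 (ENSMUSG00000031385, chromosome X, 73757090 to 73772514) fell 4.90-fold, a fold change of −2.29 on the log2 scale (SE 0.34, adjusted p = 0.00804). It was called in all 16 alternative settings, with log2 fold changes of −2.76 to −2.02. Plexin-B3 is known from the oligodendrocyte lineage. Of 10 markers of that lineage tested 2 were higher and none was lower, where 4.66% and 1.28% of all genes were called in those directions. The 11 markers matched summed to 3810 to 4470 CPM with GFP and 3583 to 5801 CPM with G392E-NS. The part of this lineage in the values of Plxnb3 was not tested.

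Plxna3, a receptor gene that is also X-linked, was at 137 to 143 CPM with GFP and 137 to 149 CPM with G392E-NS (log2 fold change 0.04, SE 0.08, adjusted p = 0.841). Plxnb1, the receptor for Sema4d and the highest guidance gene per length, was at 518, 468 and 456 CPM with GFP and 501, 655 and 543 CPM with G392E-NS. Its groups overlapped and its fold change of 0.24 on the log2 scale (SE 0.13) had an adjusted p of 0.327. Within a library, the ratio of Plxnb3 to Plxnb1 per exon length was 0.204 to 0.371 with GFP and 0.0314 to 0.0774 with G392E-NS. Plxnd1, a receptor for Sema3e best known from blood vessels, was at 9.55, 8.04 and 10.5 CPM with GFP and 11.3, 34.6 and 17.4 CPM with G392E-NS. It did not overlap between the groups, with a fold change of 1.18 on the log2 scale (SE 0.36, adjusted p = 0.103). Without G392E-NS replicate 2, its highest library, the log2 fold change was 0.60, and without G392E-NS replicate 1 it was 1.47 and passed (adjusted p = 0.0273). DESeq2 and the fit with no filter on low counts also called it. Plxna4, a receptor for Sema6a, was at 19.0 to 21.6 CPM with GFP and 13.3 to 23.0 CPM with G392E-NS (log2 fold change −0.10, SE 0.20, adjusted p = 0.812). The remaining plexins, Plxna1, Plxna2, Plxnb2 and Plxnc1, had log2 fold changes of −0.01 to 0.16.

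The start regions of Plxnb3, Epha3 and Epha4 are printed because Epha3 and Epha4, receptors of the same family, changed in opposite directions, and Plxnb3 fell the most. RefSeq promoter entries (GRCm38.p6) were found for 58 of the 68 genes and for 6 of the 7 called genes, with Efnb3 as the missing entry. Shown are the 250 bases before each RefSeq start, on the gene's strand from 5′ to 3′, with CG dinucleotides in capitals. They lie at chrX:73756853-73757102 on the plus strand for Plxnb3, chr16:63864176-63864425 on the minus strand for Epha3 and chr1:77515089-77515338 on the minus strand for Epha4.
Plxnb3: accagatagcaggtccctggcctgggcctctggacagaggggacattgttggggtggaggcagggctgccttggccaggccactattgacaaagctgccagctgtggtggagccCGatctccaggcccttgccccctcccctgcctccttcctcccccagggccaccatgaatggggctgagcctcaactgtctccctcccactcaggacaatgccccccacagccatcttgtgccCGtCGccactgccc
Epha3: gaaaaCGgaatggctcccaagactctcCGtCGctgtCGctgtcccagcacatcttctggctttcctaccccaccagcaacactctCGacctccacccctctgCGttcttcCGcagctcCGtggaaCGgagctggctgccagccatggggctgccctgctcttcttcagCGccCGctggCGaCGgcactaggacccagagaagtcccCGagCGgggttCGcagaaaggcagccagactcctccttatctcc
Epha4: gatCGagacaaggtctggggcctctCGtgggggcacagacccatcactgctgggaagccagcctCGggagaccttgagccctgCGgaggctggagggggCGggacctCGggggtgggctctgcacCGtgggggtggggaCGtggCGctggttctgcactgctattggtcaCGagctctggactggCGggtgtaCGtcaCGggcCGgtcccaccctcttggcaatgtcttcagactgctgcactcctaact
The Plxnb3 window held 3 CG dinucleotides, and 37.8% of all 32851 windows of this length held that many or fewer. Epha3 had 16, with 76.5% of windows holding that many or fewer, and Epha4 had 14, with 72.7%. On either strand, GGGCGG, a GC box that itself contains a CG, occurred 1 time in the Epha4 window and not in the other 2, and 32.7% of all windows held it. TATAAA was in none of the 3 windows, against 12.4% of all windows. The E-box CANNTG occurred 2 times in the Plxnb3 window and not in those of Epha3 and Epha4, against 66.2% of all windows. These matches describe letters in a window, not bound sites.

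Ephrins are membrane-anchored, with the A class held by a lipid anchor and the B class crossing the membrane. Among them Efnb3 rose by far the most. Efnb3, a midline repellent for corticospinal axons, had 2.42, 2.31 and 2.44 CPM in GFP replicates 1 to 3 and 29.4, 17.1 and 13.2 CPM in G392E-NS replicates 1 to 3. GFP libraries lay close together and each G392E-NS library was several-fold above them. Efnb3 (ENSMUSG00000003934, chromosome 11, 69554092 to 69560205) rose 8.35-fold, a fold change of 3.06 on the log2 scale (SE 0.31, adjusted p = 0.00128). This call held in all 16 alternative settings, with log2 fold changes of 2.66 to 3.28. In GFP libraries Efnb3 was the lowest B-class ephrin per length, at 0.751 CPM per kilobase against 7.80 for Efnb1 and 4.08 for Efnb2. In G392E-NS libraries the 3 genes were at 6.26, 6.03 and 3.82 CPM per kilobase. Within a library, the ratio of Efnb3 to Efnb1 per exon length was 0.0814 to 0.114 with GFP and 0.682 to 1.29 with G392E-NS.

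Efnb1, the X-linked ephrin gene, was at 26.9, 30.8 and 23.2 CPM with GFP and 24.7, 16.7 and 21.1 CPM with G392E-NS, overlapping groups with a fold change of −0.37 on the log2 scale (SE 0.17, adjusted p = 0.242). Efnb2, a ligand also known from arteries, had a fold change of −0.09 on the log2 scale (SE 0.19, adjusted p = 0.812). Of 5 A-class ephrins, 3 were tested and none was called, and all 3 overlapped between the groups. Efna2, the highest of them per length, was at 8.34, 10.4 and 10.4 CPM with GFP and 8.51, 8.17 and 6.91 CPM with G392E-NS (log2 fold change −0.30, SE 0.16, adjusted p = 0.329). Efna3 and Efna4 had log2 fold changes of −0.02 and 0.07. Efna5, a ligand of EphA receptors with a known part in cortical and retinal maps, had 18 counts in all, at 0.0428 to 0.173 CPM with GFP and 0.125 to 0.326 CPM with G392E-NS, and was not tested. Efna1 had 14 counts and was not tested either.

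Of 7 EphA receptor genes tested, 1 rose and 1 fell. Epha3, a receptor mainly for A-class ephrins, had 0.633, 1.0 and 1.88 CPM in GFP replicates 1 to 3 and 16.8, 15.7 and 6.33 CPM in G392E-NS replicates 1 to 3. Replicate 3 was the highest GFP and the lowest G392E-NS library, and the groups remained well apart. Epha3 (ENSMUSG00000052504, chromosome 16, 63543534 to 63864175) rose 10.8-fold, a fold change of 3.43 on the log2 scale (SE 0.47, adjusted p = 0.00573). It was called in all 16 alternative settings, with log2 fold changes of 3.15 to 3.97 and a largest adjusted p of 0.0488.

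Epha4, a receptor for ephrins of both classes, Efnb3 among them, had 52.8, 44.7 and 68.6 CPM in GFP replicates 1 to 3. It had 33.7, 32.0 and 32.6 CPM in G392E-NS replicates 1 to 3. The G392E-NS libraries lay close together, below all GFP libraries. Epha4 (ENSMUSG00000026235, chromosome 1, 77367185 to 77515088) fell 1.69-fold, a fold change of −0.76 on the log2 scale (SE 0.15, adjusted p = 0.0274). This call was lost when GFP replicate 1 (0.0938) was dropped, or G392E-NS replicate 2 (0.0703) or 3 (0.0716). With the replicate number as a block it was lost too (0.0679). Per exon length, Epha3 was at 0.0111, 0.0208 and 0.0254 of the level of Epha4 in GFP libraries and at 0.463, 0.453 and 0.180 of it with G392E-NS. Epha4 was above Epha3 in every library, and the ratio was higher in each G392E-NS library than in any GFP library.

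The highest EphA receptor gene per length was Epha5, at 177, 164 and 116 CPM with GFP and 144, 119 and 133 CPM with G392E-NS. Its groups overlapped (log2 fold change −0.20, SE 0.16, adjusted p = 0.489). Epha7 and Epha2 were low and did not overlap between the groups, with log2 fold changes of 1.21 (SE 0.35, adjusted p = 0.0871) and 0.90 (SE 0.40, adjusted p = 0.231). Epha7 had 0.518 to 0.642 CPM with GFP and 0.973 to 1.95 CPM with G392E-NS. Epha10, whose kinase domain is inactive, and Epha1 overlapped between the groups, and Epha6 and Epha8 had 4 and 2 counts in all and were not tested.

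EphB receptor genes held no call among 5 tested, with log2 fold changes of −0.63 to 0.09. Ephb2, a receptor for B-class ephrins, was at 89.3, 104 and 101 CPM with GFP and 80.8, 69.5 and 95.3 CPM with G392E-NS (log2 fold change −0.26, SE 0.13, adjusted p = 0.273). Ephb3, the highest of them per length, was at 87.2 to 99.6 CPM with GFP and 70.1 to 92.0 CPM with G392E-NS. Both genes had overlapping groups. Ephb6, which encodes a kinase-inactive receptor, did not overlap between the groups, at 5.14 to 6.33 CPM with GFP and 3.49 to 4.37 CPM with G392E-NS (log2 fold change −0.63, SE 0.19, adjusted p = 0.0979). Among the 16 alternatives, only the removal of length and GC trends called Ephb6 (−0.72, adjusted p = 0.0474). Summed per kilobase over all 14 Eph receptor genes, levels were 48.1 to 49.4 CPM with GFP and 41.3 to 45.4 CPM with G392E-NS. For EphB genes alone the sums overlapped, at 30 to 33 CPM with GFP and 25.8 to 31.8 CPM with G392E-NS. EphA genes alone had 16 to 18.1 CPM with GFP and 13.5 to 15.6 CPM with G392E-NS.

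**Figure D3:**
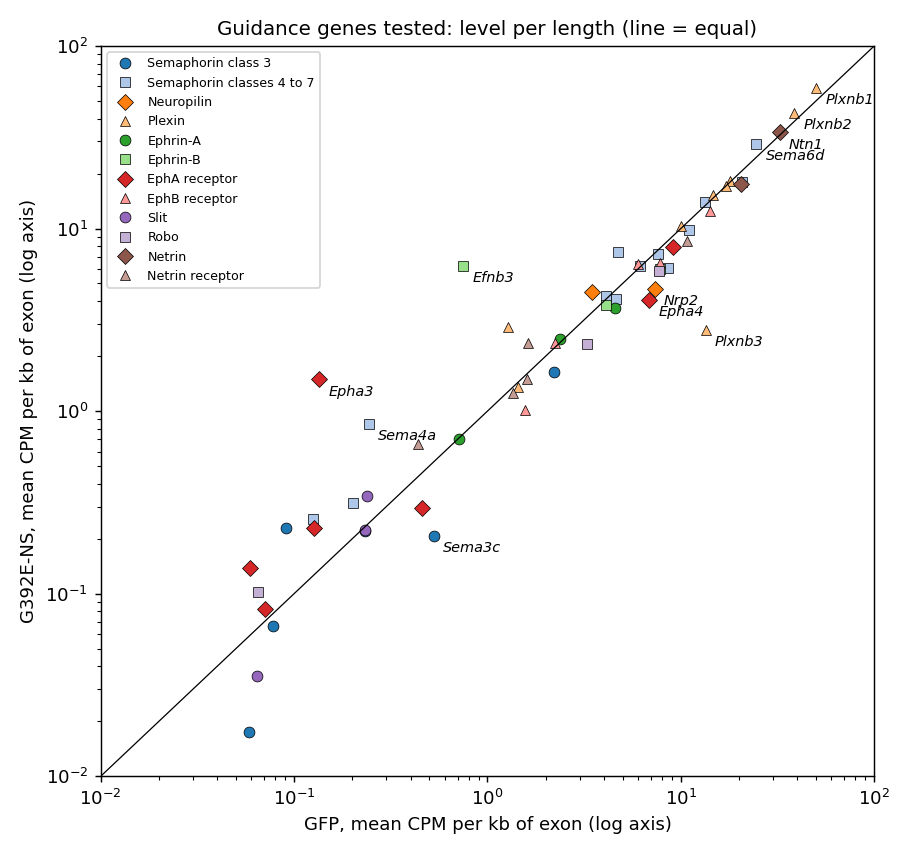
Mean CPM per kilobase of exon in GFP (x axis, log scale) and G392E-NS libraries (y axis, log scale) for the 61 guidance genes tested, with a symbol for each family and a line of equal levels. Plxnb1 is highest, at 50.1 and 59.0, and Efnb3, Epha3, Sema4a and Plxnb3 lie farthest from the line among the genes named in the plot.

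Slits and their Robo receptors held no call among 6 tested genes. Robo1, the highest of them per length, was at 140, 123 and 119 CPM with GFP and 103, 98.9 and 88.2 CPM with G392E-NS. All G392E-NS libraries lay below all GFP libraries, and the fold change of −0.39 on the log2 scale (SE 0.10) had an adjusted p of 0.0648. DESeq2 (0.0237), total-count scaling (0.0473) and the fit with no filter on low counts (0.0394) called it. Robo2, at 60.0, 69.6 and 37.3 CPM with GFP and 33.3, 38.7 and 46.2 CPM with G392E-NS, overlapped between the groups (log2 fold change −0.50, SE 0.22, adjusted p = 0.233). The low Robo2 value in GFP replicate 3 lay among the G392E-NS values. Summed per kilobase, Robo genes had 9.48 to 12.2 CPM with GFP and 8.17 to 8.45 CPM with G392E-NS.

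Slit genes were among the lowest ligands per length. Slit2 was at 5.75, 6.78 and 5.31 CPM with GFP and 6.98, 3.72 and 6.39 CPM with G392E-NS, with no consistent order of the groups (log2 fold change −0.06, SE 0.25, adjusted p = 0.909). Slit1 was at 1.44, 1.81 and 0.985 CPM with GFP and 2.37, 1.57 and 2.15 CPM with G392E-NS (log2 fold change 0.53, SE 0.30, adjusted p = 0.351). Slit3 had 38 counts in all and a fold change of −0.93 on the log2 scale with an SE of 0.75, so its level was poorly measured. Robo3, which acts in commissural axons, had 71 counts in all, and the endothelial Robo4 had 22 and was not tested.

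Netrins and their receptors also held no call, among 7 tested. Ntn1, the classic chemoattractant of commissural axons, was among the most abundant guidance genes, at 32.4 CPM per kilobase with GFP and 33.6 with G392E-NS. In CPM it was at 220, 189 and 200 with GFP and 229, 175 and 228 with G392E-NS, overlapping groups with a fold change of 0.05 on the log2 scale (SE 0.13, adjusted p = 0.846). Ntn4, a netrin of basement membranes, had a fold change of −0.22 on the log2 scale (SE 0.18, adjusted p = 0.502), and Ntn5 had 3 counts in all. Dcc, which mediates attraction to netrin, was at 139, 132 and 157 CPM with GFP and 134, 94.5 and 111 CPM with G392E-NS. The groups overlapped and its fold change of −0.34 on the log2 scale (SE 0.14, adjusted p = 0.199) did not pass, except without G392E-NS replicate 1 (−0.48, adjusted p = 0.0493).

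The UNC5 receptors, which turn the response to netrin into repulsion, had fold changes on both sides of 0 and held no call. Unc5c was at 24.2, 25.6 and 43.5 CPM with GFP and 58.2, 40.7 and 36.1 CPM with G392E-NS, overlapping through GFP replicate 3 (log2 fold change 0.53, SE 0.25, adjusted p = 0.267). Unc5b did not overlap between the groups, at 2.27 to 3.45 CPM with GFP and 3.65 to 4.70 CPM with G392E-NS (log2 fold change 0.60, SE 0.23, adjusted p = 0.182). Unc5a and Unc5d had log2 fold changes of −0.12 and −0.09.

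Set side by side, calls were 2 of 19 among semaphorins, 1 of 2 neuropilins, 1 of 9 plexins, 1 of 6 ephrins and 2 of 12 Eph receptors, with 0 of 6 for Slit and Robo and 0 of 7 for netrins and their receptors. Within the ephrins and Eph receptors, edgeR called 0 of 3 A-class ephrins and 0 of 5 EphB receptors. In these groups without an edgeR call, DESeq2 called Robo1 alone and limma-voom called none. An unadjusted p under 0.05 was found for 1 Slit or Robo gene, 2 netrin receptor genes, 0 A-class ephrins and 1 EphB receptor. Ligands held 3 calls of 30 and receptors 4 of 31, next to 5.94% of all genes tested. Median sizes of the log2 fold change, regardless of sign, were 0.76 for EphA receptors, 0.88 for class 3 semaphorins and 0.10 for plexins. The other families ran from 0.07 for A-class ephrins to 0.53 for Slits, against 0.20 for all genes tested. The EphA median was the size for Epha4, a gene at 32.0 to 68.6 CPM. Epha1, Sema3b and Sema3e were under 1 CPM in every library, with log2 fold changes of 0.19, −0.15 and −1.61. Fold changes at such levels are poorly measured, and the part of low levels in these medians was not tested. Summed per kilobase, B-class ephrins had 12.2 to 13.1 CPM with GFP and 13.6 to 21 CPM with G392E-NS. Neuropilins had 9.52 to 12.2 CPM with GFP and 8.97 to 9.31 CPM with G392E-NS. Such sums overlapped for semaphorins of classes 4 to 7, plexins, A-class ephrins, Slits, netrins and netrin receptors. These sums weigh abundant genes most, and none was tested. Summed levels of all guidance genes were 3601 to 3822 CPM with GFP and 3548 to 3741 CPM with G392E-NS, which overlapped. With so few genes in a family, these counts describe the families and no difference between them was tested.

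**Figure D4:**
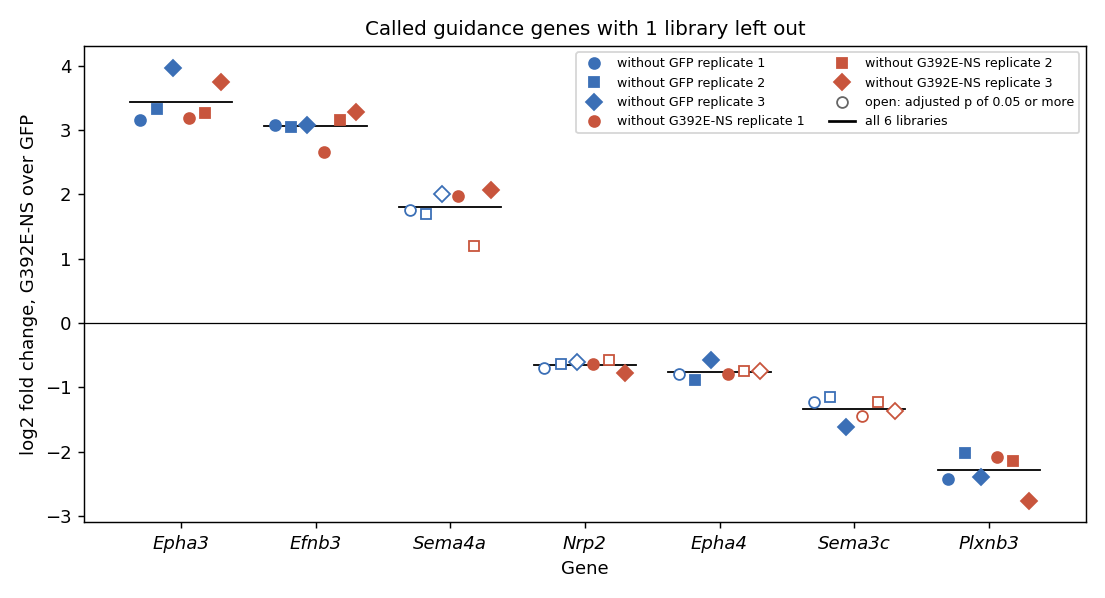
Log2 fold change of G392E-NS over GFP (y axis) for the 7 called guidance genes (x axis) with each library left out in turn, GFP libraries in blue and G392E-NS libraries in red, and black lines for all 6 libraries. Filled points have an adjusted p under 0.05 and open points do not. Epha3, Efnb3 and Plxnb3 are filled throughout, while Sema4a, Nrp2, Epha4 and Sema3c have open points.

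Few genes that work beside these families were called. Of 31 other guidance ligands and receptors tested 2 were higher and none lower (median log2 fold change −0.04). They were Ntng1, which encodes the membrane-anchored netrin-G1 and rose by 1.62 (SE 0.36, adjusted p = 0.0389), and the contactin gene Cntn4, an adhesion molecule that rose by 1.21 (SE 0.29, adjusted p = 0.0494). Ntng1 averaged 0.294 ± 0.0610 CPM under GFP, rising to 0.926 ± 0.227 CPM under G392E-NS (SD, n = 3 for both). Of 58 genes that relay guidance signals to the cytoskeleton 2 were higher and 2 lower (median 0.03). Mical1, an enzyme that oxidises actin below plexins, had 2, 1 and 2 counts in the GFP libraries and 81, 79 and 23 in the G392E-NS libraries. Its fitted log2 fold change was 4.97 (SE 0.51, adjusted p = 0.00151), a size that rests on those few GFP counts. Chn1, whose product relays signals of Epha4 to Rac, rose by 0.49 (SE 0.11, adjusted p = 0.0439). Its relative Chn2 fell by 0.49 (SE 0.12, adjusted p = 0.0483), and the adaptor gene Nck1 fell by 0.43 (SE 0.09, adjusted p = 0.0289). The shares called in these lists, 6.45% and 6.90%, lie near the 5.94% of all genes. Mical1 was called in all 16 alternatives. The other 5 calls were weaker: Chn1 was lost with any 1 library dropped (0.0672 to 0.143), and Ntng1, Cntn4, Nck1 and Chn2 were each lost in 5 of 6 such fits, including all 3 without a GFP library, with adjusted p up to 0.161, 0.147, 0.160 and 0.198. Without G392E-NS replicate 1, Cntn4 was at 0.78. Among these fits, Ntng1 and Cntn4 kept the call only without G392E-NS replicate 2, Nck1 and Chn2 only without G392E-NS replicate 1. Over all alternatives the call was kept in 5 of 16 for Cntn4, 6 for Chn2, 8 for Chn1 and 9 for Nck1, and in 7 of 15 for Ntng1. On all 6 libraries Cntn4 was lost with RLE (0.0505) or total-count scaling (0.0619) and by limma-voom (0.075). Ntng1 was lost by DESeq2 (0.0722) and limma-voom (0.0523). All 5 were lost with the replicate number as a block.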

How the data were processed

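Raw gene counts were deposited by the authors as whole numbers per Ensembl gene and library, with no normalisation. Build GRCm38 is named in the submitters' processing notes, as are the tools DESeq2 1.4.5, HTSeq 0.6.1, TopHat2 2.0.12 and R 3.2.2, without their roles. Neither the annotation release nor the strand setting is given in the sources used here. Groups and replicate numbers came from the labels. Symbols, positions and exon lengths came from GENCODE M21, which named 37693 of 39179 genes.

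Genes with at least 30 counts summed over the libraries (14884, holding 99.95% of counts) were compared with the quasi-likelihood F test of edgeR 4.0.16 in R 4.3.3, with TMM scaling and group as its sole term. Benjamini-Hochberg adjustment covered all 14884 genes, and an adjusted p under 0.05 counted as a call. CPM are TMM-scaled, and levels of different genes are compared per kilobase of exon. The size of each log2 fold change divided by the square root of F gave its SE. Libraries of a group differed by more than sampling noise (chi-square per degree of freedom 8.02 to 56.4). The tests were tried on simulated counts with known changes. The alternatives tried were DESeq2 1.42.0, voom in limma 3.58.1, scaling by RLE, upper quartile or total count, 3 other filters on low counts, the replicate number as a block, trends on length and GC content removed, and each library left out.

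The members, gene lists and tests were chosen with earlier results of these data known. Every called member, 18 members fixed for their known roles and the highest member per length of each family are named, with up to 8 called genes of the pathway lists. Others named were chosen after their values were seen, as were the ratios between genes.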

Additional observations from a re-analysis of the deposited data

How the results depend on the processing

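Efnb3, Epha3 and Plxnb3 were called in all 16 alternatives. Of the other called members, Epha4 was lost in 4, Nrp2 in 5, Sema4a in 7 and Sema3c in 9, with no change of direction. Counts called over all genes, 693 higher and 191 lower, were 1107 and 365 by DESeq2 and 1205 and 374 with no filter on low counts, where 5 guidance genes were higher in each. With 1 library left out they ranged from 200 to 972 higher and 47 to 348 lower, and guidance genes called from 3 to 9, with 2 to 4 higher and 1 to 5 lower. Deviations of same-numbered libraries from their group means had correlations of 0.04, −0.39 and −0.26. Between libraries of different numbers the correlations ran from −0.07 to 0.36. With 3 libraries in each group, these values cannot show whether the numbers pair the samples. With the replicate block 260 genes were higher and 60 lower, and 3 guidance genes were called, of which 1 was lower. Across the 16 alternatives, 19 of the 61 members tested changed sign at least 1 time, none of them called and none with a log2 fold change beyond 0.20 in size on all 6 libraries. Of the 19 uncalled members named by rule and tested, 5 did so. With total-count scaling Sema6a and Ntn1 were at 0.00, and with length and GC trends removed Slit2 was at 0.12 and Epha5 at 0.02. With 1 library left out, Sema6a ranged from −0.02 to 0.15 (−0.01 without G392E-NS replicate 3), Plxna4 from −0.25 to 0.10, Slit2 from −0.26 to 0.16 (0.04 without GFP replicate 2) and Ntn1 from −0.02 to 0.16 (−0.01 without G392E-NS replicate 3). The cause of these shifts was not tested. Fits with a library dropped also rest on fewer samples. Members near 30 counts, such as Slit3, Sema3b and Epha1, were too shallow to show moderate differences.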
